A study of Canis lupus familiaris with 8 samples.

Results

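The genes described here are 40 monocyte and macrophage genes, chosen by gene symbol as markers, receptors, transcription factors and products of these cells. The choice was made with earlier results of these data known, so shares set beside those of all genes describe the list and test nothing. Of the 40, 39 were listed in the count tables of all 8 dogs and 38 had enough counts to be tested, among 20632 genes tested in all. CD33, a sialic acid-binding receptor of myeloid cells, was not listed under that symbol. THBD, which encodes thrombomodulin, was listed with 0 counts in every dog, which allows a level of up to 0.340 CPM in the library where this limit is highest. RNA came from the peripheral blood mononuclear cells (a preparation that keeps lymphocytes and monocytes) of 5 obese dogs and 3 normal dogs. By breed, obese dog 1 was a Dachshund, obese dog 2 a Chihuahua, obese dogs 3 and 4 were Labrador retrievers, obese dog 5 was a Welsh Corgi, and all 3 normal dogs were Beagles. Each library came from 1 dog. Breed and body condition cannot be told apart in any comparison below, because no obese dog was a Beagle. The labels give neither age nor sex nor body weight.

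Monocytes arise in the bone marrow from myeloid precursors under the control of the transcription factor PU.1 and of C/EBP factors, and they depend on signalling through the receptor for CSF1. In blood they sense microbes and damage through CD14, Fc receptors and complement receptors, and in tissues they can become macrophages with scavenger receptors, lysosomal enzymes and receptors for dying cells. Many of these genes are also active in neutrophils, and some in platelets, B cells or dendritic cells.

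Transcripts were counted from reads near the poly(A) tail, so a value follows the number of transcripts more than their length. Levels are given as CPM, counts divided by a library size that was scaled by the TMM method, which corrects for differences in composition. Library totals ran from 10264202 to 14910982 counts. Of the 39 listed genes, 31 had a mean above 10 CPM over the 8 dogs and 14 had a mean above 100 CPM, and 6 had a mean under 5 CPM. The genes added up to 4179, 2992, 6191, 3385 and 2920 CPM in obese dogs 1 to 5, against 5881, 7575 and 5122 CPM in normal dogs 1 to 3. Obese dog 3 lay among the normal dogs and the other 4 obese dogs below all of them. VCAN took 5.11 to 13.7% of these sums in obese dogs and 18.0 to 28.9% in normal dogs. In bulk RNA of this kind, fewer monocytes and less RNA of a gene per monocyte cannot be told apart.

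The defining markers SPI1, TYROBP, CSF1R, CTSS and AIF1 were present in every dog, from 41.0 CPM for AIF1 in normal dog 3 upwards, while FCER1G did not exceed 3.51 CPM in any dog and CD14 stayed between 7.19 and 32.6 CPM. Markers of other cells moved with the groups or with single dogs. The 12 neutrophil markers added up to 1269, 392, 8254, 631 and 549 CPM in obese dogs 1 to 5, against 2095, 8192 and 5057 CPM in normal dogs 1 to 3. ALPL was under 1 CPM in every dog, and CXCR2 reached at most 5.33 CPM. The 7 listed platelet markers added up to 1241, 624, 72.1, 67.6 and 183 CPM in obese dogs, against 21.0, 8.19 and 32.0 CPM in normal dogs, with GP1BB at 0 in all. T cell markers added up to 482 to 1729 CPM in obese dogs and 363 to 507 CPM in normal dogs, with obese dog 3 lowest of the obese dogs and within the normal range. Of the B cell, NK cell, plasma cell, erythroid and dendritic cell markers, 8, 8, 7, 5 and 6 were tested, with median log2 fold changes, obese minus normal, of 0.78, 0.65, −2.18, 5.71 and 0.43. The erythroid value rests in large part on obese dog 3, where these markers added up to 1159 CPM. Their sums were 8.11 to 29.7 CPM in the other 4 obese dogs and 6.47 to 8.93 CPM in normal dogs. Without obese dog 3 the median was 1.99, over the 4 erythroid markers tested in that fit. Of the markers of all these cells, a single one passed the test described next. TNFRSF17, a receptor of plasma cells, fell to 0.227 to 1.11 CPM in obese dogs, against 8.96 to 16.9 CPM in normal dogs (log2 fold change −4.39, adjusted p = 0.0228, edgeR). The part of these cells in the results below was not tested.

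**Figure D1:**
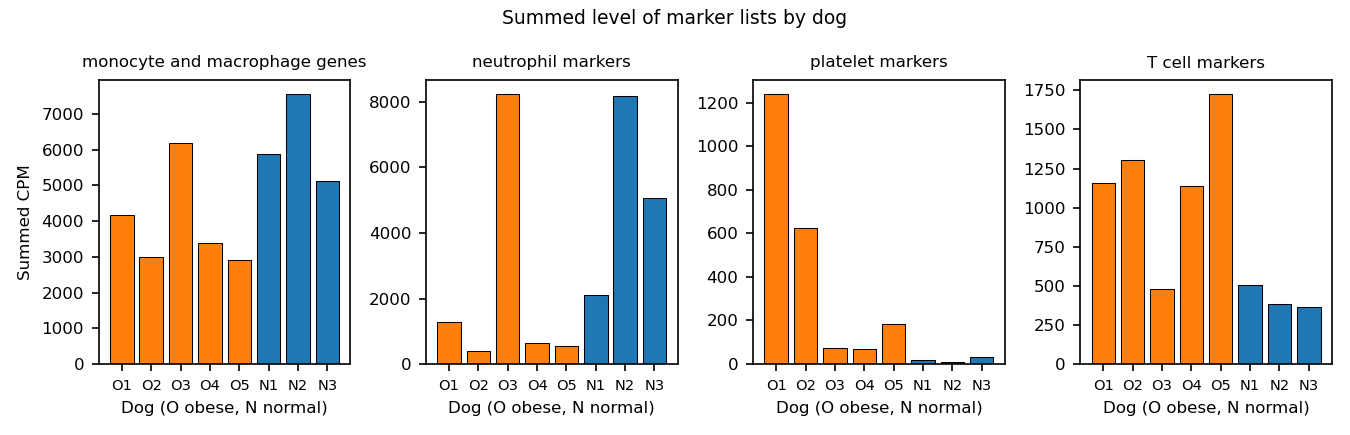
Summed CPM of the 39 listed monocyte and macrophage genes, the neutrophil markers, the platelet markers and the T cell markers in each dog, with obese dogs (O1 to O5, orange) left of normal dogs (N1 to N3, blue) and bars starting at 0. Obese dog 3 stands with the normal dogs for the monocyte genes (6191 CPM) and the neutrophil markers (8254 CPM), and obese dog 1 is highest for platelet markers (1241 CPM).

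No monocyte or macrophage gene passed the threshold of an adjusted p of 0.05 in the comparison of obese with normal dogs (edgeR's quasi-likelihood test with Benjamini-Hochberg adjustment over all genes). Of all genes tested, 0.233% passed. At an unadjusted p under 0.05 there were 8 genes lower and 2 higher in obese dogs, or 26.3% of the 38, where 15.7% of all genes were under 0.05 in either direction. The 8 on the lower side were 21.1% of the 38, where 6.73% of all genes were lower at this level and 9.01% higher. DESeq2's Wald test passed 6 of the genes (5.07% of all genes), 5 lower (2.11% of all genes) and 1 higher (2.97%). These were MSR1, VCAN, LGALS3, PLAUR, KYNU and, on the higher side, TREM2. limma-voom with quality weights for the libraries passed 13 (19.1% of all genes), 12 lower (9.96%) and 1 higher, MRC1 (9.15%). Those lower by limma-voom were MSR1, VCAN, CEBPB, CEBPD, MARCO, FCGR1A, LGALS3, C5AR1, CSF2RA, CSF2RB, PLAUR and KYNU. None passed in edgeR with DESeq2 size factors (0.262% of all genes), upper-quartile factors (0.267%), TMM without the genes over 1% of a library (0.270%), no filter on low counts (0.156%), a mean of at least 5 CPM (0.438%) or repeated symbols summed (0.233%).

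Of the 38 log2 fold changes, 22 were below 0 (57.9%, where 44.7% of all genes were) and 16 above it. Their median was −0.25, and that of all genes tested 0.09. With upper-quartile scaling these medians were −0.36 and −0.03, so that the difference between them was −0.33 there and −0.34 with TMM. In 9 genes, or 23.7%, the groups did not overlap, 8 lower and 1 higher in obese dogs, where 10.9% of all genes had groups without overlap, 5.16% lower and 5.75% higher. The 8 were MSR1, PLAUR, KYNU, VCAN, LGALS3, MERTK, CSF2RB and FCER1G, and TREM2 was the exception on the higher side.

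**Figure D2:**
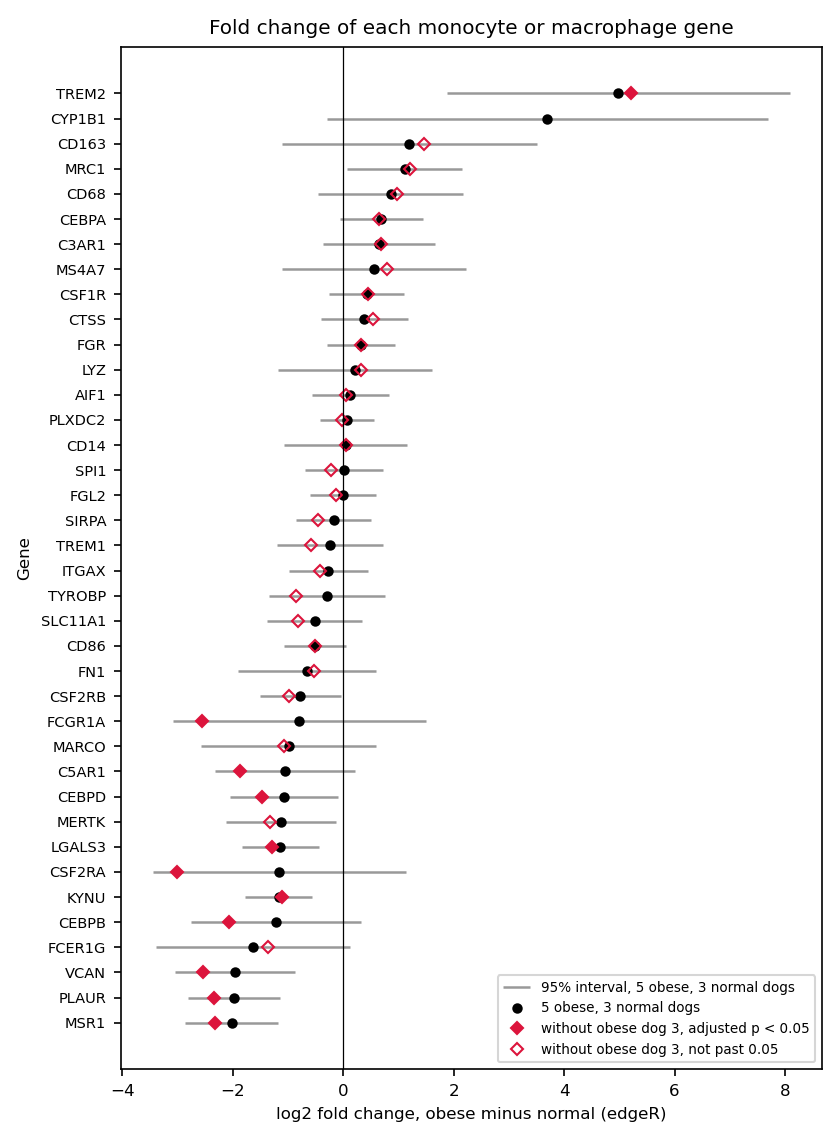
Log2 fold change, obese minus normal, of the 38 tested genes (edgeR), sorted from highest to lowest, with black points and grey 95% intervals for all 8 dogs and red diamonds for the 37 tested without obese dog 3. Filled diamonds mark an adjusted p under 0.05 without that dog, 10 on the lower side and TREM2 on the higher side, while CSF2RA, FCGR1A, C5AR1 and CEBPB move furthest left.

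Of the lineage transcription factors, SPI1, which encodes PU.1, had 454, 328, 629, 401 and 276 CPM in obese dogs 1 to 5, against 332, 554 and 353 CPM in normal dogs. The normal values lay inside the range of the obese values, and the log2 fold change was 0.02 (95% interval −0.68 to 0.72), with a sign that turned to −0.11 under upper-quartile scaling. CEBPA, a factor of early myeloid development, had 44.8, 16.1, 30.3, 35.8 and 25.3 CPM in obese dogs, against 21.1, 16.4 and 19.0 CPM in normal dogs. Its groups overlapped through obese dog 2 alone, and the gene did not pass (log2 fold change 0.69 with a standard error of 0.338, adjusted p = 0.356, edgeR).

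CEBPB and CEBPD, the C/EBP factors of activated myeloid cells, stood lower in most obese dogs but not in obese dog 3. CEBPD had 89.7, 53.7, 239, 133 and 109 CPM in obese dogs, against 198, 395 and 192 CPM in normal dogs. CEBPB had 18.5, 89.4, 268, 62.0 and 53.4 CPM in obese dogs, against 253, 141 and 288 CPM in normal dogs. For both genes the value of obese dog 3 lay inside the normal range and the other 4 obese dogs lay below it. Neither passed in edgeR with all dogs, with log2 fold changes of −1.07 for CEBPD (adjusted p = 0.284) and −1.21 for CEBPB (adjusted p = 0.424, edgeR). Without obese dog 3 they were −1.47 (adjusted p = 0.0316) and −2.06 (adjusted p = 0.0253).

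Among the growth factor receptors, CSF1R, the receptor for CSF1 and interleukin-34, had 149, 87.1, 88.5, 109 and 109 CPM in obese dogs, against 120, 66.4 and 55.4 CPM in normal dogs. The groups overlapped through normal dog 1, and the log2 fold change was 0.43 (95% interval −0.25 to 1.11). CSF2RB, the beta chain shared by the receptors for GM-CSF, interleukin-3 and interleukin-5, had 55.2, 70.3, 81.5, 41.1 and 28.5 CPM in obese dogs, against 81.8, 110 and 91.8 CPM in normal dogs. Obese dog 3 and normal dog 1 almost met, and the gene did not pass in edgeR (log2 fold change −0.77, adjusted p = 0.296, edgeR). By limma-voom CSF2RB passed (log2 fold change −1.04, adjusted p = 0.0176). CSF2RA, the alpha chain of the GM-CSF receptor, had 253 CPM in obese dog 3 and 13.4 to 31.8 CPM in the other 4 obese dogs, against 79.1 to 214 CPM in normal dogs. Its highest value of all 8 dogs and its 4 lowest were thus in the obese group. Its log2 fold change was −1.15 with a standard error of 1.01 with all dogs, and −3.00 (standard error 0.409, adjusted p = 0.00379, edgeR) without obese dog 3.

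The scavenger receptors had fold changes of both signs, and none passed in edgeR with all dogs. MSR1, a class A scavenger receptor that takes up modified lipoproteins, had the smallest p of the 38 genes. It had 8.73, 5.29, 11.7, 3.57 and 5.89 CPM in obese dogs, against 25.3, 24.7 and 34.8 CPM in normal dogs. Every obese dog lay below every normal dog, and the log2 fold change was −2.01, with a standard error of 0.381 (adjusted p = 0.0716, edgeR). MARCO, another class A scavenger receptor, had 27.7, 2.78, 11.0, 4.91 and 2.80 CPM in obese dogs, against 25.9, 16.9 and 14.9 CPM in normal dogs. Obese dog 1 was above all normal dogs for MARCO and the other 4 obese dogs were below them. MARCO did not pass in edgeR (log2 fold change −0.98, adjusted p = 0.537) but did by limma-voom (−1.85, adjusted p = 0.0153).

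MRC1, the mannose receptor, stood on the opposite side from MSR1, with 4.31, 7.6, 4.31, 11.4 and 7.06 CPM in obese dogs, against 4.50, 2.10 and 3.00 CPM in normal dogs. The groups overlapped at the low end of the obese dogs, and the log2 fold change was 1.11 (adjusted p = 0.295, edgeR). CD163, which takes up haemoglobin bound to haptoglobin, had 30.5, 9.52, 0.454, 3.46 and 2.51 CPM in obese dogs, against 4.78, 3.10 and 4.15 CPM in normal dogs. Obese dogs 1 and 2 were above the normal dogs, obese dogs 3 and 5 below and obese dog 4 among them, and without obese dog 1 the log2 fold change was −0.0040 in place of 1.2. CD163 overlaps an uncharacterised gene that had 1734 counts over the 8 dogs, against 683 for CD163. CD14, the coreceptor for lipopolysaccharide, had 32.6, 10.1, 16.6, 25.4 and 11.1 CPM in obese dogs, against 28.3, 7.19 and 19.96 CPM in normal dogs. Its groups overlapped almost entirely, with a log2 fold change of 0.05 (95% interval −1.07 to 1.16) that was −0.06 under upper-quartile scaling. CD68, a lysosomal membrane protein of macrophages, had 252 CPM in obese dog 1 and 43.8 to 63.9 CPM in the other 4 obese dogs, against 40.8 to 56.2 CPM in normal dogs.

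**Figure D3:**
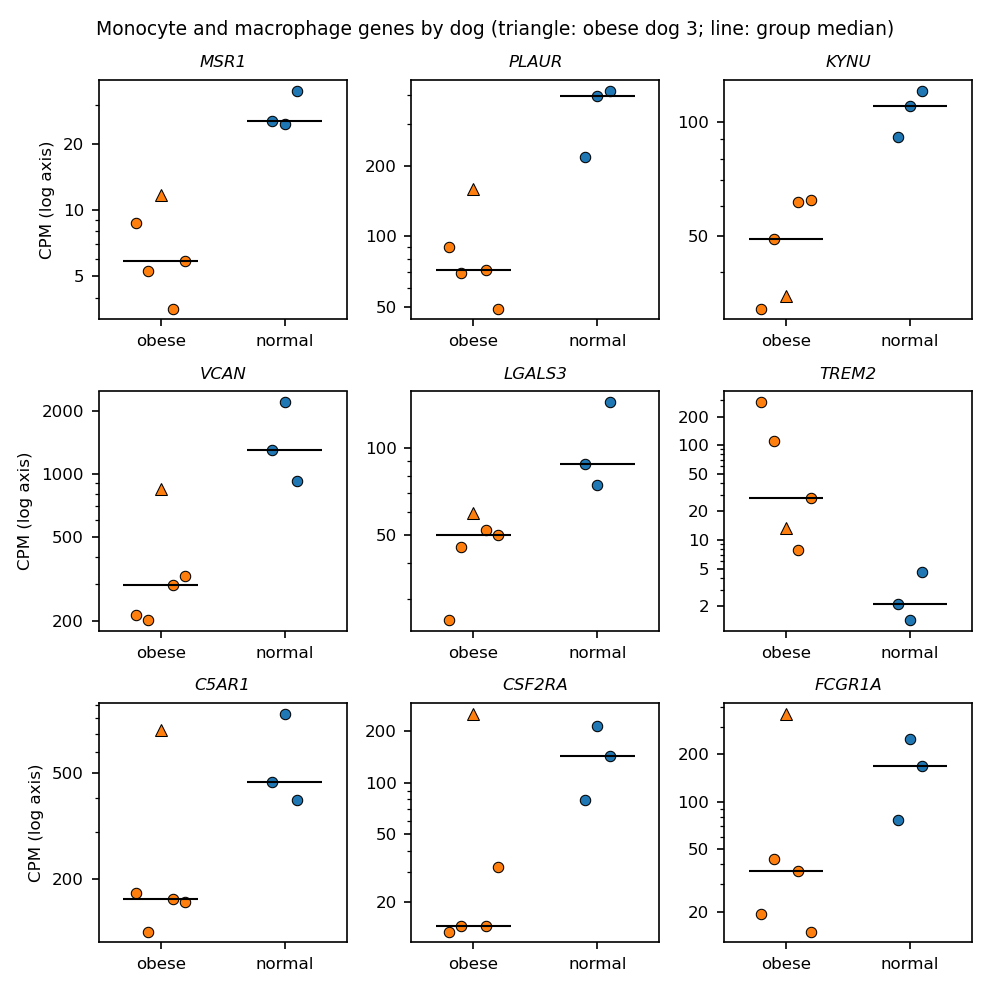
CPM of 9 genes in each dog on log axes, obese dogs left and normal dogs right, with a line at each group's median and a triangle for obese dog 3. The groups do not overlap for MSR1, PLAUR, KYNU, VCAN, LGALS3 and TREM2, while for C5AR1, CSF2RA and FCGR1A obese dog 3 (721, 253 and 362 CPM) stands apart from the other obese dogs.

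The receptors of phagocytosis, complement and activation held both the largest positive fold change and several genes that followed obese dog 3. TREM2, a lipid-sensing receptor of macrophages, had 282, 110, 13.5, 7.81 and 28.1 CPM in obese dogs, against 2.11, 1.44 and 4.66 CPM in normal dogs. Each obese dog was above each normal dog, and the obese values spanned a far wider range than the normal ones. The log2 fold change was 4.98 with a standard error of 1.37, and TREM2 did not pass (adjusted p = 0.162, edgeR). It passed without obese dog 3 (adjusted p = 0.0435, edgeR) and by DESeq2, and not by limma-voom, where the log2 fold change was 3.02. Without obese dog 1 it was 3.84 (edgeR). The order of the 8 dogs by TREM2 was the same as their order by the summed platelet markers. How many of all genes share this order is not given here, and a platelet part in the TREM2 values was not tested. Of the platelet markers, 6 were tested, and each was higher in every obese dog than in any normal dog (5.75% of all genes). None of the 6 passed in edgeR with all dogs (0.233% of all genes), while DESeq2 passed 5 (5.07%) and limma-voom 2 (19.1%). Without obese dog 3, 4 of the 6 passed in edgeR, all higher in obese dogs (3.25% of all genes).

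C5AR1, the receptor for the complement fragment C5a, had 176, 127, 721, 167 and 163 CPM in obese dogs, against 460, 831 and 395 CPM in normal dogs. The value of obese dog 3 was within the normal range and the others were below it by a wide gap. FCGR1A, the high-affinity receptor for IgG, had 362 CPM in obese dog 3 and 14.9 to 43.4 CPM in the other 4 obese dogs, against 76.4 to 249 CPM in normal dogs. TYROBP, the adapter that carries signals of TREM1 and TREM2, had 393, 245, 923, 312 and 225 CPM in obese dogs, against 392, 755 and 399 CPM in normal dogs. None of these 3 passed in edgeR with all dogs, while limma-voom passed C5AR1 and FCGR1A. Their edgeR log2 fold changes were −1.05 for C5AR1, −0.79 for FCGR1A and −0.30 for TYROBP, and that of TYROBP was 0.06 without normal dog 2. FCGR1A overlaps an uncharacterised gene with 1503 counts, against its own 10895.

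MERTK, a receptor that binds dying cells through bridging proteins, had 2.50, 1.39, 3.86, 3.85 and 2.04 CPM in obese dogs, against 5.06, 7.64 and 5.23 CPM in normal dogs. The groups did not overlap, at 21 to 82 counts per library, and the gene did not pass (log2 fold change −1.13, adjusted p = 0.270, edgeR). FCER1G, the common gamma chain of Fc receptors, had 0 to 1.56 CPM in obese dogs and 1.90 to 3.51 CPM in normal dogs, again without overlap, from 0 to 55 counts per library. The other 6 of these receptors and kinases overlapped between the groups. CD86, which costimulates T cells, averaged 76.3 ± 21.8 CPM in obese dogs and 109 ± 6.55 CPM in normal dogs (SD, n = 5 and 3), and it overlaps an uncharacterised gene with 10950 counts, against its own 9330. SIRPA, which receives the CD47 signal that restrains phagocytosis, averaged 139 ± 53.9 CPM in obese dogs and 157 ± 8.74 CPM in normal dogs. The log2 fold changes of ITGAX (integrin alpha X), TREM1 (an amplifier of inflammatory signals), C3AR1 (the receptor for C3a) and FGR (a Src family kinase) were −0.26, −0.23, 0.65 and 0.33, and that of TREM1 ran from −0.58 to 0.05 with 1 dog left out.

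**Figure D4:**
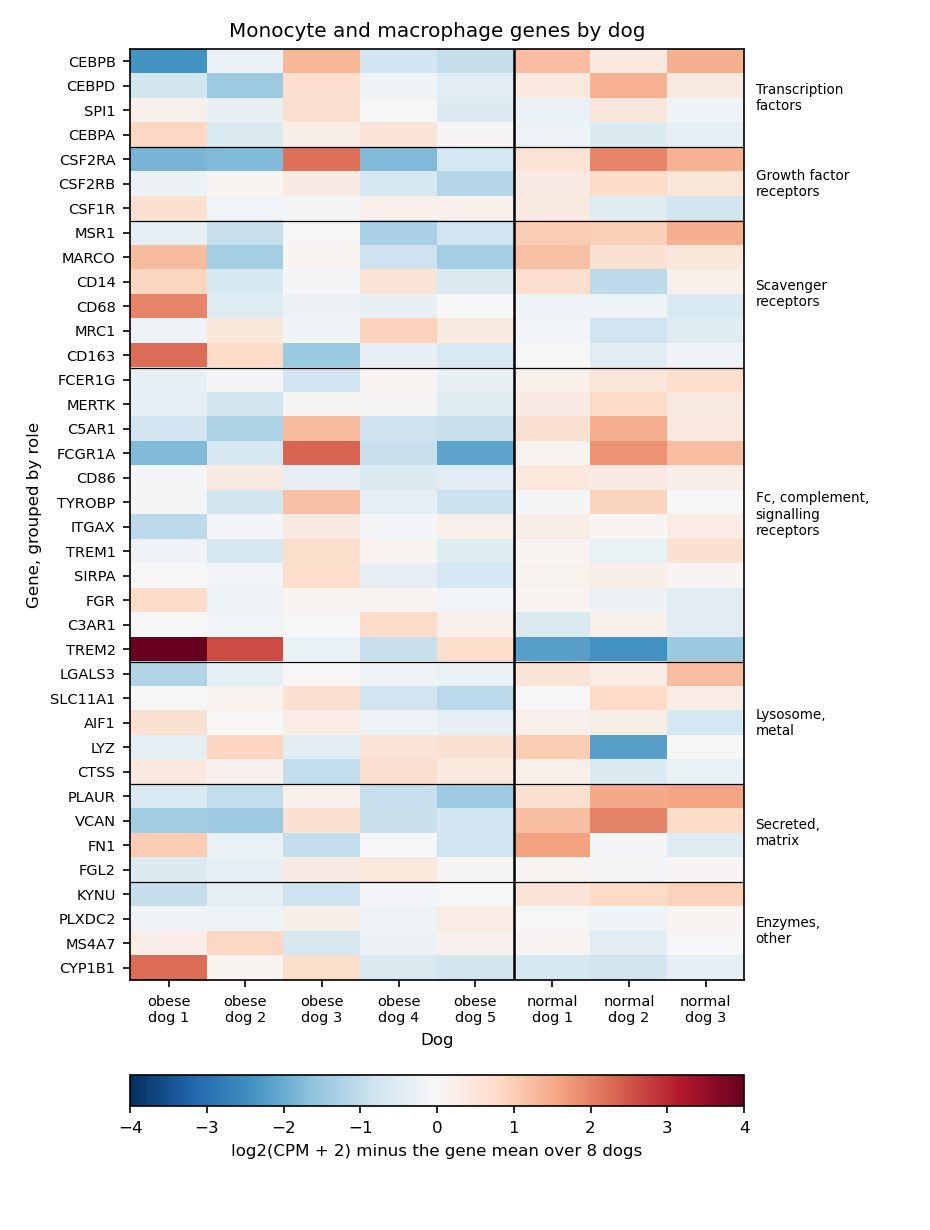
Log2(CPM + 2) minus the mean of the gene over 8 dogs, for the 38 tested genes grouped by role, with the 5 obese dogs left of the black line and the 3 normal dogs right of it. Red is above and blue below the gene's mean. CSF2RA, FCGR1A, C5AR1 and CEBPB are red in obese dog 3 and blue in the other obese dogs, and TREM2, CD163, CD68 and CYP1B1 are reddest in obese dog 1.

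Of the lysosomal proteins and their neighbours in the phagocyte, LGALS3, which encodes galectin-3, had 25.3, 45.5, 59.5, 51.9 and 49.9 CPM in obese dogs, against 88.0, 74.6 and 144 CPM in normal dogs. The groups did not overlap, and the log2 fold change was −1.14, with a standard error of 0.314 (adjusted p = 0.150, edgeR). CTSS, the cysteine protease cathepsin S that trims the invariant chain of MHC class II, had 293, 247, 111, 347 and 288 CPM in obese dogs, against 256, 151 and 185 CPM in normal dogs. Obese dog 3 was lowest of all 8 dogs for CTSS, unlike its position for C5AR1 and CSF2RA. CTSS overlaps an uncharacterised gene with 20327 counts, against its own 26386. LYZ, or lysozyme, ran from 29.4 to 73.5 CPM in obese dogs and from 7.19 to 83.0 CPM in normal dogs. SLC11A1, a metal transporter of phagosomes, averaged 74.8 ± 35.7 CPM in obese dogs and 106 ± 30.1 CPM in normal dogs, and AIF1, an actin-binding protein of macrophages, 72.6 ± 21.2 CPM in obese dogs and 66.3 ± 21.9 CPM in normal dogs (SD, n = 5 and 3).

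The secreted, matrix and surface proteolysis genes held the most abundant gene of the list and 2 of the 9 without overlap. VCAN, the matrix proteoglycan versican, the most abundant of the 39 genes, had 214, 201, 851, 297 and 325 CPM in obese dogs, against 1297, 2191 and 920 CPM in normal dogs. The groups did not overlap, but obese dog 3 came close to normal dog 3. The log2 fold change was −1.96, with a standard error of 0.490 (adjusted p = 0.123, edgeR), and −2.54 without obese dog 3 (adjusted p = 0.00311). PLAUR, the receptor that holds urokinase at the cell surface, had 90.2, 69.3, 158, 72.0 and 49.1 CPM in obese dogs, against 219, 399 and 417 CPM in normal dogs. All obese dogs were below all normal dogs, and the log2 fold change was −1.97, with a standard error of 0.375 (adjusted p = 0.0721, edgeR). FN1, or fibronectin, had 476, 196, 118, 234 and 134 CPM in obese dogs, against 710, 221 and 163 CPM in normal dogs. Normal dog 1 alone was far above the others in its group, and without it the log2 fold change of FN1 was 0.29 in place of −0.65. FGL2, a fibrinogen-like protein, averaged 146 ± 41.2 CPM in obese dogs and 146 ± 5.71 CPM in normal dogs (SD, n = 5 and 3). It overlaps CCDC146, which had 17120 counts against 15869 for FGL2, and how reads in the overlap were assigned is not stated.

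Among the enzymes and other membrane proteins, KYNU, the kynureninase of tryptophan breakdown, had 32.1, 49.0, 34.7, 61.3 and 62.1 CPM in obese dogs, against 91.0, 110 and 121 CPM in normal dogs. Unlike for VCAN and PLAUR, obese dog 3 was near the low end of its group for KYNU. The log2 fold change was −1.17, with a standard error of 0.275 (adjusted p = 0.109, edgeR). CYP1B1, a cytochrome P450 enzyme that oxidises steroids and aromatic compounds, had 121 counts in obese dog 1, while the remaining obese dogs had 0 to 30 counts and the normal dogs 0 to 10. MS4A7, a tetraspan protein of monocytes, was between 0.340 and 4.56 CPM in obese dogs and between 0.664 and 1.97 CPM in normal dogs. PLXDC2, a plexin domain receptor, averaged 181 ± 29.7 CPM in obese dogs and 172 ± 14.6 CPM in normal dogs (SD, n = 5 and 3), with a log2 fold change of 0.07 that was −0.04 under upper-quartile scaling.

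Without obese dog 3, 11 of 37 genes passed (edgeR), 10 lower and 1 higher in obese dogs, where 8.28% of all genes passed in that fit, 5.03% lower and 3.25% higher. Groups did not overlap in 16 genes of the list, and in 25.0% of all genes. The 10 on the lower side, 27.0% of the 37, were MSR1, PLAUR, VCAN, KYNU, LGALS3, CEBPB, CEBPD, C5AR1, CSF2RA and FCGR1A. Their log2 fold changes ran from −1.10 for KYNU to −3.00 for CSF2RA. In the same fit 5 of 10 neutrophil markers passed, all lower in obese dogs, and 5 of 10 T cell markers passed, all higher. No gene of the list passed when any other single dog was left out. In those fits 0.00980, 0.00994, 0.0150 and 0.0749% of all genes passed without obese dogs 1, 2, 4 and 5, and 0.151, 0.0925 and 0.00940% without normal dogs 1, 2 and 3. In 12 of the 38 genes, or 31.6%, the 4 highest values were those of obese dog 3 and the 3 normal dogs, as they were for 5 of 11 tested neutrophil markers and for 8.47% of all genes tested. The 12 were MSR1, VCAN, CEBPB, CEBPD, FCGR1A, LGALS3, SIRPA, C5AR1, CSF2RA, CSF2RB, MERTK and PLAUR. Some of them, C5AR1, CSF2RB and PLAUR among others, are known from neutrophils as well as from monocytes. The part of neutrophil RNA in these values was not tested.

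The genes did not follow obese dog 3 as a block. It was the highest obese dog for 17 of the 38 and the lowest for 7, and obese dog 1 was the highest for 11 and the lowest for 6. The same counts over all genes are not given here, so these describe the list only. The 11 genes for which obese dog 1 led the obese dogs were TREM2, CD68, CD163, MARCO, FN1, CSF1R, CD14, CEBPA, FGR, AIF1 and CYP1B1, and this dog also had the highest summed platelet markers of the 8.

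A further list of 41 monocyte and macrophage genes was set beside the 40, of which 38 were listed and 34 tested. None passed with all dogs (edgeR). Of their log2 fold changes, 15 were above 0 and 19 below (55.9%, where 44.7% of all genes were), and their median was −0.01. At an unadjusted p under 0.05 there were 8, or 23.5%, where 15.7% of all genes were. Without obese dog 3, 8 passed the adjusted threshold, 6 lower and 2 higher, where 8.28% of all genes passed. With all dogs DESeq2 passed 4 of 35 (5.07% of all genes) and limma-voom 10 of 34 (19.1%). F13A1, the coagulation factor XIII subunit of monocytes and platelets, had 350, 194, 105, 89.7 and 167 CPM in obese dogs, against 44.8, 10.5 and 13.2 CPM in normal dogs. Every obese dog was above every normal dog (log2 fold change 2.99, adjusted p = 0.0932, edgeR), in the libraries with the platelet marker sums given above. IRF8, a transcription factor of monocytes, dendritic cells and B cells, had 77.1, 133, 44.9, 156 and 77.1 CPM in obese dogs, against 43.6, 14.1 and 23.1 CPM in normal dogs. TLR4, the receptor for lipopolysaccharide that acts with CD14, had 21.6, 11.9, 21.2, 16.3 and 20.2 CPM in obese dogs, against 29.0, 43.3 and 42.9 CPM in normal dogs. Neither gene overlapped between the groups, and their log2 fold changes were 1.86 and −1.07 (adjusted p = 0.136 and 0.132, edgeR). LYN, a Src family kinase, had 176 to 438 CPM in obese dogs and 414 to 865 CPM in normal dogs (log2 fold change −1.19, adjusted p = 0.152, edgeR).

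Of 14 ligands and partners of these receptors, 12 were listed and 9 tested, and none passed with all dogs (edgeR). HCST alone passed without obese dog 3 (edgeR), or 11.1% of the 9, where 8.28% of all genes passed. The log2 fold change was above 0 for 8 of the 9 and below 0 for 1 (11.1%, where 44.7% of all genes were). Their median was 1.02, and that of all genes tested 0.09. An unadjusted p under 0.05 (edgeR) was found for 3, or 33.3%, all higher in obese dogs. Of all genes, 15.7% were under 0.05, 9.01% on the higher side. HCST, an adapter related to TYROBP that works with NKG2D in lymphocytes, had 16.7, 12.2, 28.2, 16.1 and 15.6 CPM in obese dogs, against 7.66, 6.64 and 4.72 CPM in normal dogs. The groups did not overlap (log2 fold change 1.48, adjusted p = 0.117, edgeR). IL34, a ligand of CSF1R, had 263, 38.3, 3.74, 13.7 and 12.9 CPM in obese dogs, against 6.05, 5.75 and 4.46 CPM in normal dogs, with obese dog 1 highest, as for CSF1R itself. PROS1, a bridging ligand of MERTK, and CD28, the receptor for CD86, had log2 fold changes of 1.62 and 1.17 with adjusted p-values of 0.296 and 0.354 (edgeR). CSF2, which encodes GM-CSF, was listed at 0 in every dog.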

How the data were processed

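For each dog the authors deposited a table of counts, whole numbers without normalization, with a gene symbol in each row. Per the labels' protocols, 500 ng of total RNA per dog went into Lexogen QuantSeq libraries, and Bowtie2 and bedtools are named in the submitters' processing notes. Neither their versions nor the genome build, annotation and use of strand are stated there, so overlapping genes may share reads. Of 35048 rows, 411 repeated a symbol, and the row with the highest mean stood for the symbol. The repeated rows were not removed. They stayed in the library totals and, where counts were high enough, among the genes tested. Overlaps came from a RefSeq gene table of UU_Cfam_GSD_1.0, which held 33000 of the 34637 symbols. Every pair of libraries differed by more than sampling noise (lowest chi-square per degree of freedom 35.9).

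Counts were fitted in R 4.3.3 with edgeR 4.0.16 (filterByExpr by group, TMM, glmQLFit and glmQLFTest, robust), and p-values were adjusted by Benjamini-Hochberg over all 20632 genes tested. The fit was tested on simulated counts. Standard errors come from the fold change and the F statistic of each gene. Fold changes are obese minus normal. Alternatives were DESeq2 1.42.0, limma 3.58.1, other scalings and filters, and leaving out each dog. Limits for 0 counts use 3 counts and cover counting error only. The genes and lists were chosen with earlier results of these data known. CPM of every dog was given for the 10 genes with the smallest p, the 6 most abundant and 10 markers named by rule. Values of CSF2RA, FCGR1A and CD68 were added after they were seen.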

Additional observations from a re-analysis of the deposited data

Results flagged for a closer look

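In 9 of the 38 tested genes 1 obese dog stood apart from the other 4, by a gap that exceeded 0.71 of the range of the obese dogs. The critical value is set so that chance gives such a gap in about 1 group in 20 where values are normally distributed, but 16.2% of all genes tested had one, beside 23.7% of the 38. Obese dog 3 was the high dog in 6 of them, or 15.8%, and in 9.82% of all genes. Its C5AR1 value of 721 CPM compared with 127 to 176 CPM in the other obese dogs, and its CSF2RA value of 253 CPM with 13.4 to 31.8 CPM. FCGR1A had 362 CPM there and 14.9 to 43.4 CPM in the other obese dogs, and CEBPB 268 CPM and 18.5 to 89.4 CPM. TYROBP had 923 CPM there and 225 to 393 CPM in the other obese dogs, and VCAN 851 CPM and 201 to 325 CPM. In the same library the neutrophil markers added up to 8254 CPM, against 392 to 1269 CPM in the other obese dogs.

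Obese dog 1 was the high dog in the remaining 3, or 7.89%, and in 2.82% of all genes. CD68 had 252 CPM there and 43.8 to 63.9 CPM in the other obese dogs, FGR had 257 CPM and 131 to 160 CPM, and CYP1B1 had 13.7 CPM and 0 to 3.40 CPM.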

How the results depend on the processing

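No gene of the list passed with all dogs under any of the 3 other scalings, the 2 other filters or the summing of repeated symbols. DESeq2's test passed 6 and limma-voom with quality weights 13, where the counts over all genes were 1046 and 3942 in place of 48. With all dogs, 8 of the 38 genes had no overlap with DESeq2 size factors, in place of 9. With a mean of at least 5 CPM there were 7 of 33. The remaining scalings, no filter on low counts and summed symbols gave 9. Leaving out 1 dog gave 0 to 11 genes past the threshold, 9 to 16 without overlap and a median log2 fold change of −0.51 to −0.13, and in each case the extreme away from the value with all dogs came without obese dog 3 or, for −0.13, without obese dog 5. Some signs turned. The log2 fold change of SPI1, near 0 with all dogs, was −0.11 with upper-quartile factors, −0.0073 without genes over 1% of a library, −0.053 with a mean of at least 5 CPM, −0.030 by limma-voom and −0.21 to 0.26 without 1 dog. That of CD14 was −0.058 with upper-quartile factors, −0.016 with at least 5 CPM, −0.14 by limma-voom and −0.37 to 0.50 without 1 dog. Without 1 dog CD163 ran from −0.0040 to 1.46, FN1 from −1.10 to 0.29 and TYROBP from −0.84 to 0.058. Signs also turned without 1 dog for TREM1, AIF1, LYZ, PLXDC2 and FGL2, and by limma-voom for CYP1B1 (−0.26), PLXDC2 (−0.03) and FGL2 (0.00256). TREM2 ran from 3.84 to 5.58. The cause was not tested. With the dog number as a replicate block 0 genes of the list and 0 of all 20632 passed, and the medians were −0.17 and −0.03. In that fit obese dogs 4 and 5, whose numbers no normal dog shares, add nothing to the fold change. Little is left to estimate the error from, so the absence of passing genes there decides nothing. No label says that a number pairs dogs: same-numbered deviations correlated at −0.0047, −0.255 and 0.0076.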
